A study of Mus musculus with 6 samples.

Results

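The 10 genes described here encode parts of the signalling chain that lies behind G protein-coupled receptors such as the receptor for C5a: 4 regulators of G protein signalling (Rgs1, Rgs2, Rgs10 and Rgs19), 5 G protein subunits (Gna13, Gnai2, Gnai3, Gnas and Gnb1) and 1 phosphodiesterase (Pde4b). They were found as the array probes whose RefSeq accession names 1 of these genes, which gave 21 of the 56605 probes. All 10 genes had a probe, and 9 had one that was bright enough to be tested among 4488 genes in all. The cells were C5aR+ LysoDCs, phagocytes of the mouse Peyer's patch, a lymphoid organ in the wall of the gut, that express lysozyme and carry the C5a receptor. They were enriched with CD11c beads after removal of dead cells, then sorted and kept in medium with CSF-1 (0.1 μg/mL) and a factor that the labels spell CFS-2 (0.5 μg/mL), which both groups shared. One group of 3 samples was untreated (0 nM) and the other, also of 3, had received 100 nM recombinant C5a for 3 h. Each sample was hybridised to 1 one-colour array. The labels give no strain, age, number of animals or culture time of the untreated cells, and nothing says that the samples of a group came from separate animals, so the spread behind each p value may be technical rather than biological.

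C5a is a fragment released from complement component C5. Its receptor acts mainly through G proteins of the Gi class: on activation the alpha subunit exchanges GDP for GTP and parts from the beta-gamma dimer. The Gi alpha subunit inhibits adenylyl cyclase, the enzyme that makes cAMP, while the dimer acts on phospholipase C and phosphoinositide 3-kinase. Rgs proteins end the signal by speeding up GTP hydrolysis on the alpha subunit, and phosphodiesterases break down cAMP.

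Levels are given on a log2 scale on which 0 is the 75th percentile, on that array, of the probes that stood well above background on every array, differences are C5a minus untreated, and a probe is called detected on an array where the scanner software marked it well above background. The arrays differed in brightness. The probes detected numbered 3574, 6959 and 2728 on untreated 1 to 3 and 4864, 6651 and 3668 on C5a 1 to 3. In numbers 1 and 3 the C5a array thus detected more probes than the untreated one. That percentile spanned a 4.23-fold range of signal, with the replicates numbered 2 the brightest and those numbered 3 the dimmest of each group. The lowest level of any detected probe was -3.67, -5.37 and -3.31 on the untreated arrays 1, 2 and 3. It was -4.50, -5.17 and -3.81 on the C5a arrays, so a weak transcript could be seen on the arrays numbered 2 and missed on those numbered 3. Of 15 marker genes of mononuclear phagocytes 13 were tested, including Lyz1, Lyz2, Itgax and Csf1r, each detected on all 6 arrays, while Cx3cr1 and Mertk were detected on none. All measured markers of T cells (7), neutrophils (6), epithelium (8) and stroma or endothelium (8) were detected on 0 arrays. Of the 8 B cell markers 6 were detected on 0 arrays, and Cd79b, on 1 untreated and 2 C5a arrays, was the 1 that was tested. Of 5 measured plasma cell markers only Tnfrsf17 was detected on 0 arrays. Xbp1, which other secretory cells also express, was detected on all 6, at a mean of -1.16 in untreated and -1.04 in C5a samples, and the rest were detected on too few arrays to be tested. C5ar1, the gene of the C5a receptor, stood at -3.50, -4.02 and -3.32 in untreated 1 to 3 and at -3.28, -3.38 and -5.01 in C5a 1 to 3. It was detected on untreated 2 and on C5a 1 and 2.

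By the most often detected probe of each gene, detection ran from all 6 arrays for Rgs1, Gna13 and Gnas down to 2 for Pde4b. Of the 21 probes, 4 were detected on all 6 arrays, 12 on at least 3 and 6 on none. Of all 56605 probes, 2371 were detected on all 6 arrays, 4958 on at least 3 and 48672 on none, so the members were detected more often than most probes. The 4 were the probes of Rgs1 and Gna13 and 2 of the 5 probes of Gnas. Rgs2 and the brighter probe of Gnai2 were detected on 5 arrays and missed on untreated 3. Gnai3, Rgs10 and Rgs19 each had a probe detected on 4 arrays. Gnb1 reached 3 arrays with 1 of its 2 probes. Pde4b did not reach 3 arrays with any of its 3 probes.

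**Figure D1:**
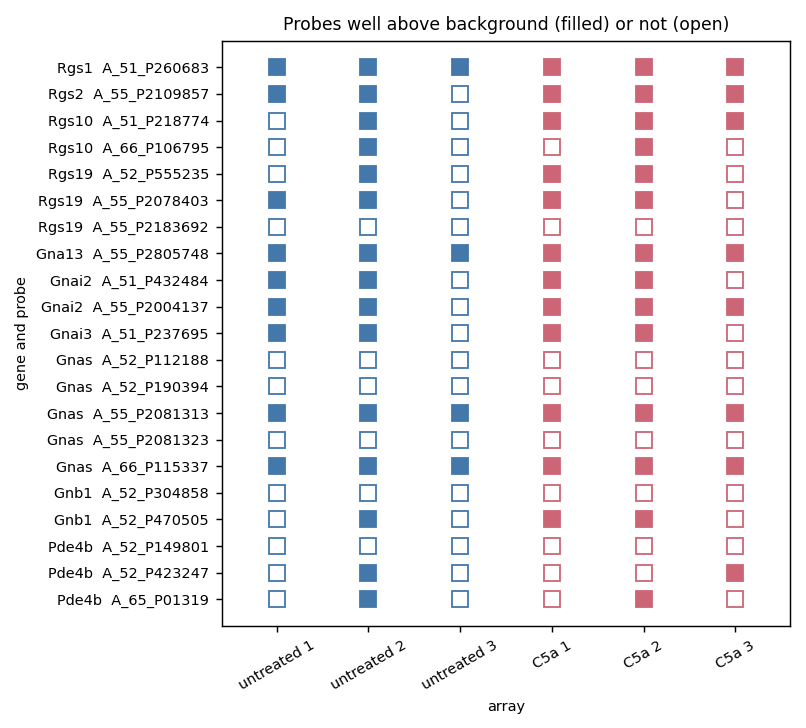
Detection of the 21 probes of the 10 genes on the 3 untreated (blue) and 3 C5a (red) arrays, 1 row per probe and 1 column per array; a filled square marks a probe well above background. The column of untreated 3 has the fewest filled squares, and 6 probes are open on every array.

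No member differed between C5a and untreated cells by limma with Benjamini-Hochberg adjustment over all 4488 genes. The adjusted p was 0.9994 for each of the 9 tested members, and 0 of 4488 genes (0%) were called. At an unadjusted p under 0.05 in limma there were 0 members, where 106 genes in all (2.36%) had one. The 2 groups overlapped for all 9 members, while they did not overlap for 5.7% of all genes tested. Differences were positive for 5 members and negative for 4, with a median of 0.06 against 0.04 over all genes, of which 54.9% were positive. The typical gene's 95% interval reached 0.87 to either side of its difference. RNA came from whole cell samples, in which fewer cells of a type and less RNA per cell cannot be told apart.

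**Figure D2:**
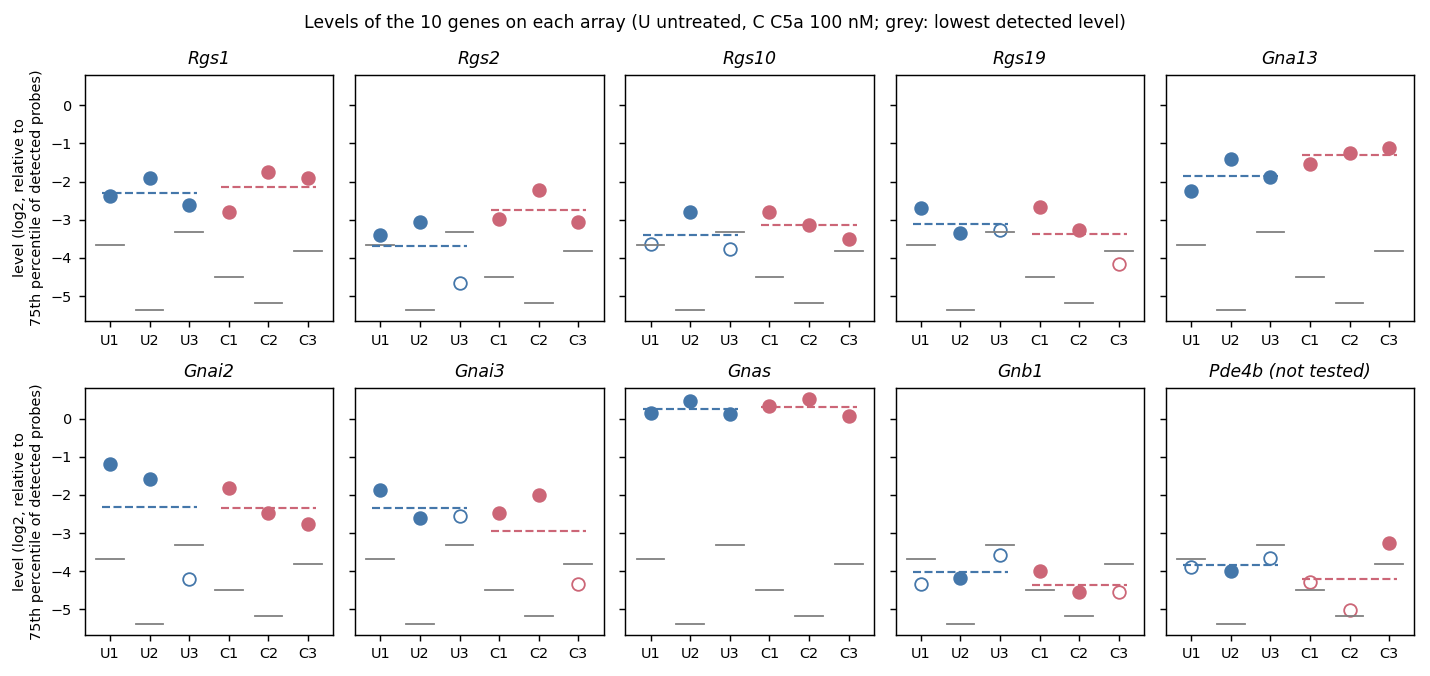
Level of each of the 10 genes (log2, relative to the 75th percentile of detected probes) on untreated arrays U1 to U3 (blue) and C5a arrays C1 to C3 (red), for the tested probe or, for Pde4b, the brightest one; filled points were well above background, dashed lines are group means over 3 arrays, and grey bars mark the lowest level detected on that array. The groups overlap in every panel, and the open points of Rgs2 and Gnai2 on U3 and of Gnai3 on C3 are the lowest of their panels.

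Among the Rgs genes, Rgs2 had the largest difference of the 9 tested members. Its protein acts chiefly on the Gq class of alpha subunits. Rgs2 stood at -3.39, -3.05 and -4.65 in untreated 1 to 3 and at -2.97, -2.21 and -3.06 in C5a 1 to 3. C5a samples 1 and 2 lay above all untreated samples, and C5a 3 lay just below untreated 2. The difference was 0.95 (SE 0.48, 95% interval -0.18 to 2.08), which is 1.93-fold with an interval of 0.884 to 4.23. It did not pass in limma (unadjusted p = 0.0867, adjusted p = 0.9994). Each same-numbered pair was higher with C5a, by 0.42, 0.84 and 1.59. The last of these rests on untreated 3, where Rgs2 was not detected, and without that array the difference was 0.47 (SE 0.37), the lowest value with 1 array left out. With the replicate number as a block the SE fell to 0.30 (limma unadjusted p = 0.0268, adjusted p = 0.927).

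The promoter window of Rgs2 is shown because Rgs2 had the largest difference and because cAMP acts on genes through the cAMP response element. That of Gna13, the other member higher with C5a in all 3 pairs, stands beside it. Both windows run 5′ to 3′ on the gene's strand from 250 bases before to 50 bases after the start (RefSeq, GRCm38.p6), at chr1:144004100-144004399 on the minus strand for Rgs2 and at chr11:109362544-109362843 on the plus strand for Gna13. Capitals mark the core of the element, TGACG on either strand.
Rgs2: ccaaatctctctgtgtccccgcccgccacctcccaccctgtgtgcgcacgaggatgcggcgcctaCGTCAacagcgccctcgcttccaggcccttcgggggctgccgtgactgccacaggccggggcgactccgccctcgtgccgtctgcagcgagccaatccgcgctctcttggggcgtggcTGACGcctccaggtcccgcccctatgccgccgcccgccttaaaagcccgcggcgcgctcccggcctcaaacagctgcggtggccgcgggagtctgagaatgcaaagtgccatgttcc
Gna13: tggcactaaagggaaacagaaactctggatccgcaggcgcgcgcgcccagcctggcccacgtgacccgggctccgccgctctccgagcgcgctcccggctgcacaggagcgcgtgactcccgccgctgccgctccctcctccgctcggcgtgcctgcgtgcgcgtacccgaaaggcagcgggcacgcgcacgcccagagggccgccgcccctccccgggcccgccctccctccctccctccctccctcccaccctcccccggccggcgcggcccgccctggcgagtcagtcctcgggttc
The Rgs2 window held this core at 2 places, starting 185 and 67 bases before the start, and the Gna13 window held it at 0. Gnb1, whose difference was negative, also had 2 in its window, and in all 5 of the 8 members with a window held the core, in 7 of their 16 windows. The core occurred in 20.8% of the 32851 mouse promoter windows of this length, and at 2 or more places in 5.01%. These shares are per window, and no share per gene was found to set beside the 5 of 8 members. Windows of a gene can overlap, as 2 of the Gnas windows with a core do, so a core may be counted more than once. The whole element TGACGTCA was in 1.79% of the windows and in 0 of the 16 windows of the 8 members that had one. These matches describe letters and were not tested against the array values.

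Rgs1, which restrains chemokine receptor signalling in lymphocytes, was detected on all 6 arrays. Its level was -2.37, -1.92 and -2.61 in untreated 1 to 3, against -2.79, -1.74 and -1.89 in C5a 1 to 3. C5a 1 was the lowest of the 6 samples and C5a 2 the highest, so the C5a samples enclosed the untreated ones. The difference was 0.16 (SE 0.37, 95% interval -0.72 to 1.04). The pairs went both ways, from -0.42 in number 1 to 0.72 in number 3.

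Rgs10 and Rgs19 encode small Rgs proteins that act on alpha subunits of the Gi class. Rgs10 stood at -3.63, -2.79 and -3.77 in untreated 1 to 3 and at -2.78, -3.14 and -3.50 in C5a 1 to 3, a difference of 0.26 (SE 0.36). With 1 array left out it ran from 0.071, without untreated 3, to 0.56, without untreated 2. Rgs10 was detected on 1 untreated and on 3 C5a arrays. The 2 undetected untreated arrays held its lowest levels, and untreated 2 and C5a 1 its highest. Those 2 arrays, untreated 1 and 3, also detected fewer probes in all (3574 and 2728) than C5a 1 and 3 (4864 and 3668). The 3 C5a arrays alone met the detection minimum for Rgs10. A second probe of Rgs10, detected on the 2 arrays numbered 2 alone, had a difference of -0.10 and was not tested.

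Rgs19 stood at -2.69, -3.35 and -3.28 in untreated 1 to 3 and at -2.66, -3.28 and -4.16 in C5a 1 to 3, a difference of -0.26 (SE 0.43). Pairs 1 and 2 differed by 0.02 and 0.08, and pair 3 by -0.89. Neither array numbered 3 detected the probe. When each of the 4958 kept probes was tested on its own, the dimmer probe of Rgs19 differed by -0.40 (SE 0.47).

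Gna13, the alpha subunit that activates RhoA through guanine nucleotide exchange factors, had the next largest positive difference and was detected on every array. It stood at -2.25, -1.40 and -1.88 in untreated 1 to 3 and at -1.54, -1.25 and -1.12 in C5a 1 to 3. C5a 2 and 3 lay above all untreated samples, and untreated 2 lay above C5a 1. The difference was 0.54 (SE 0.31, 95% interval -0.19 to 1.28), or 1.46-fold, and did not pass in limma (unadjusted p = 0.126, adjusted p = 0.9994). The pairs differed by 0.71, 0.15 and 0.76. Rgs2 and Gna13 were thus the 2 of 9 members higher with C5a in all 3 pairs, and 14.4% of all genes tested were.

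Gnai2, a main Gi alpha subunit of leukocytes, gave unlike values in its 2 kept probes. The brighter probe stood at -1.20, -1.58 and -4.19 in untreated 1 to 3 and at -1.82, -2.47 and -2.77 in C5a 1 to 3. Untreated 1 and 2 were the highest of the 6 samples and untreated 3, where the probe was not detected, the lowest. The difference was -0.03 (SE 0.77, 95% interval -1.85 to 1.79), and it was -0.96 (SE 0.38) without untreated 3 (limma unadjusted p = 0.0445, adjusted p = 0.9998). In that limma fit 91 of 4488 genes had an unadjusted p under 0.05. With each array left out in turn, the difference ran from -0.96 to 0.53.

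The dimmer probe of Gnai2 gave a more even picture. It stood at -3.14, -2.83 and -4.89 in untreated 1 to 3 and at -4.10, -4.05 and -5.78 in C5a 1 to 3. Every pair was lower with C5a, by -0.95, -1.21 and -0.90, but untreated 3 lay below C5a 1 and 2, so the groups overlapped. Of all 4958 probes tested in this way, 11% were lower in all 3 pairs. The probe's difference was -1.02 (SE 0.68). With the replicate block the SE was 0.22 (limma unadjusted p = 0.00572), and the adjusted p over the 4958 probes was 0.921. In that limma fit 221 of the 4958 probes had an unadjusted p under 0.05. Both arrays numbered 3 lacked detection of this probe, so pair 3 compares levels that were not well above background. In pairs 1 and 2, where both probes were detected on all 4 arrays, the brighter probe also had negative differences, of -0.62 and -0.89. In pair 3 the brighter probe went the other way, by 1.42, and was detected on C5a 3 but not on untreated 3.

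Gnai3, a second Gi alpha subunit, had the largest negative difference among the tested probes chosen for the genes. It stood at -1.86, -2.61 and -2.55 in untreated 1 to 3 and at -2.48, -1.99 and -4.34 in C5a 1 to 3. The difference of -0.60 (SE 0.61, 95% interval -2.04 to 0.84) rested on C5a 3, the lowest of the 6, where Gnai3 was not detected. Without that array it was 0.10 (SE 0.38). Untreated 3 was not detected either, and the pairs ran from -1.79 to 0.61.

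Gnas, whose main product is the Gs alpha subunit that stimulates adenylyl cyclase, varied least of the members. Its brighter probe stood at 0.13, 0.47 and 0.12 in untreated 1 to 3 and at 0.32, 0.51 and 0.06 in C5a 1 to 3, a range of 0.45 over all 6 arrays. The difference was 0.06 (SE 0.27, 95% interval -0.58 to 0.69), an interval from 0.67-fold to 1.61-fold. A second probe, under the same accession, stood between -1.65 and -1.05 and differed by 0.02 (SE 0.30). The other 3 probes of Gnas carry other transcript accessions and were detected on no array. The files hold no probe sequences, so which transcripts of this locus each probe reads was not determined.

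Gnb1, a beta subunit shared by many G protein trimers, gave a weak signal. Its brighter probe stood at -4.32, -4.18 and -3.58 in untreated 1 to 3 and at -4.00, -4.54 and -4.55 in C5a 1 to 3. It was detected on untreated 2 and on C5a 1 and 2. The highest of the 6 values, on untreated 3, was not detected there and lay below the lowest detected level of that array, -3.31. The difference of -0.34 (SE 0.32, 95% interval -1.09 to 0.42) moved with that array and was -0.11 (SE 0.32) without it.

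Pde4b encodes a cAMP phosphodiesterase that is a main form in myeloid cells. Its brightest probe was detected on untreated 2 and C5a 3 and stood at -3.89, -3.99 and -3.65 in untreated 1 to 3 and at -4.29, -5.02 and -3.27 in C5a 1 to 3. The probe missed the detection minimum of 3 arrays and was not tested with the other members. A second probe was detected on untreated 2 and C5a 2, and the third on none. In a fit that kept dim probes too, the brightest probe differed by -0.35 (SE 0.77, 95% interval -1.86 to 1.15), with an adjusted p of 0.991 in limma over 46522 genes. That fit gave every named gene the same SE, so the SE and interval do not measure the spread of this probe. Its SD was 0.18 in untreated and 0.88 in C5a samples.

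**Figure D3:**
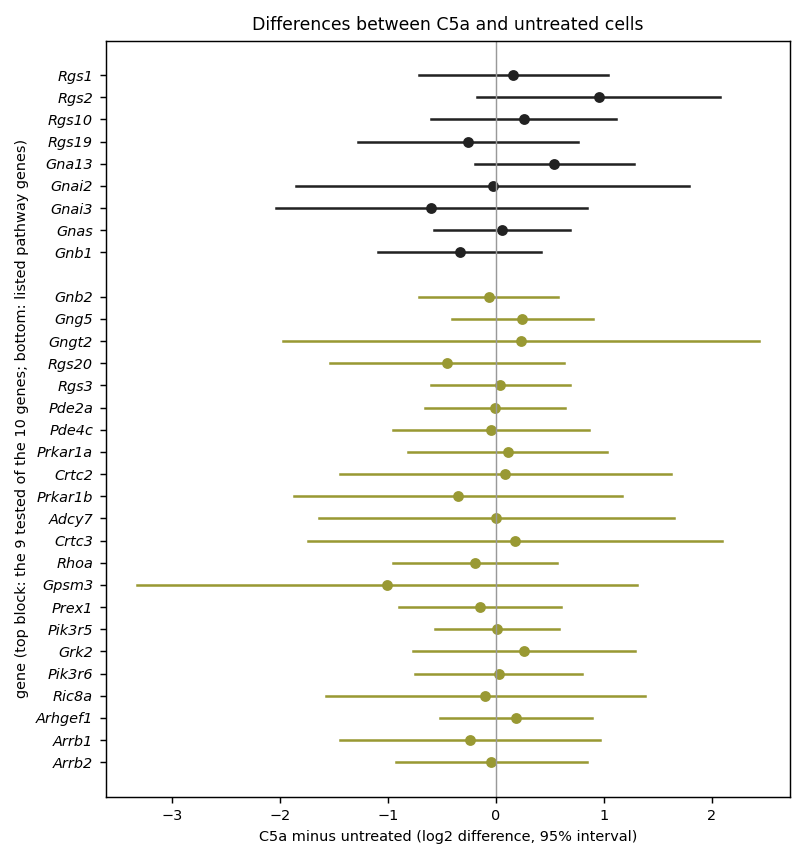
Log2 difference between C5a and untreated cells (points) with its 95% interval (lines) for the 9 tested members (black, top) and the 22 tested genes of the pathway lists (olive, bottom), n = 3 arrays per group. Every interval includes 0, and that of Gnas is the shortest of the 9.

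The labels give a replicate number in both groups without saying what it stands for. In the limma fit with group and number, 0 of 4488 genes (0%) passed the F test for the number after Benjamini-Hochberg adjustment, and the lowest adjusted p of a member was 0.282, for Rgs2. At an unadjusted p under 0.05 were 0 of the 9 members, each read by its brightest kept probe, and 17.9% of all genes tested. With each kept probe tested on its own, the dimmer probes of Gnai2 (limma unadjusted p = 0.00176, adjusted p = 0.175) and Rgs19 (limma unadjusted p = 0.0489, adjusted p = 0.279) were below 0.05 before adjustment and did not pass after it. Gnai2 averaged -1.51, -2.02 and -3.48 in numbers 1, 2 and 3, and its dimmer probe -3.62, -3.44 and -5.33. Rgs19 averaged -2.67, -3.31 and -3.72, and Gnai3 -2.17, -2.30 and -3.44. For these 3 genes, and for Rgs2, Rgs10 and Gnas, the dimmest arrays, those numbered 3, had the lowest mean. Gnb1 had its highest mean in number 3, at -4.06, and Rgs1 in number 2, at -1.83. Array brightness ran along with the number, so the 2 cannot be told apart.

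Among named genes, the profile over the 6 arrays nearest to that of a member was found as the smallest root mean square difference after centring each gene. Rgs1 lay nearest to Purb, a single-stranded DNA binding protein gene, at 0.057, where the median gene lay at 0.597. Rgs2 lay nearest to Gvin1, an interferon-inducible GTPase gene, at 0.157, and Gna13 to Kdm6b, the gene of a histone demethylase, at 0.107. For the Gi subunits these were Mapk14, which encodes p38 alpha, at 0.267 from Gnai2, and Smarcb1, a chromatin remodelling subunit, at 0.147 from Gnai3. Gnas lay nearest to Rragc, a GTPase gene of amino acid sensing, at 0.064, and Gnb1 to the phosphatase gene Ppm1b at 0.088. Rgs10 and Rgs19 lay nearest to Sphk2, a sphingosine kinase, at 0.100 and to Mrpl11, a mitochondrial ribosomal protein, at 0.105. The nearest gene is by definition the smallest of many distances, so it lies below the median gene for any member. These are descriptions over 6 arrays that share brightness and replicate number.

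Most other genes of the pathway were too dim to be tested, as were most genes on the array. With unnamed probes counted as genes, 4488 of 46522 were tested, and 48672 of 56605 probes were detected on no array. Of 101 listed genes with a probe, 22 were tested and 0 passed in either direction by limma with Benjamini-Hochberg adjustment. Differences were positive for 11 and negative for 11, with a median of -0.0026 against 0.04 over all genes, and the groups overlapped for all 22. In each list the tested genes with the highest means are named.

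None of the 9 other alpha subunit genes was tested, and 8 of them, among them Gna12, Gna11 and Gna15, were detected on no array. Of 14 other beta and gamma subunits 3 were tested. Gnb2 had a level of 0.67 ± 0.18 (SD) in untreated and 0.61 ± 0.27 in C5a samples, Gng5 one of -0.06 ± 0.11 and 0.18 ± 0.32, and Gngt2 one of -2.85 ± 1.85 and -2.62 ± 0.99. Gnb2 and Gng5, a beta and a gamma subunit, were detected on all 6 arrays and differed by -0.07 (SE 0.27) and 0.25 (SE 0.28). Without C5a 1 the difference of Gng5 was 0.062.

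Of 15 other Rgs genes 13 were detected on no array, among them Rgs16 and Rgs18. The 2 tested were Rgs3, at a difference of 0.04 (SE 0.27), and Rgs20, at -0.45 (SE 0.46), which ran from -0.87 without C5a 1 to -0.10 without C5a 2. Of 17 other phosphodiesterase genes 14 were detected on no array, including Pde4a, Pde4d and Pde7a. Pde2a, which is stimulated by cGMP, differed by -0.01 (SE 0.27) and Pde4c, of the same cAMP-specific family as Pde4b, by -0.05 (SE 0.39).

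Among 22 adenylyl cyclase and cAMP effector genes 5 were tested and 14 were detected on no array, including the catalytic subunit gene Prkaca and the transcription factor gene Creb1. Prkar1a and Prkar1b, regulatory subunits of the cAMP-dependent kinase, differed by 0.11 (SE 0.39) and -0.35 (SE 0.64), and Crtc2, a coactivator of CREB, by 0.09 (SE 0.65). Effectors of beta-gamma and of the G12 and G13 subunits, receptor kinases and arrestins had 10 tested of 24. Rhoa, the GTPase behind Gna13, differed by -0.19 (SE 0.32) and Prex1, a Rac exchange factor activated by beta-gamma, by -0.15 (SE 0.32), both detected on all 6 arrays. Gpsm3, a modulator of Gi subunits, differed by -1.01 (SE 0.98), with an SD of 0.25 in untreated and 2.19 in C5a samples. Its C5a levels were -0.98, -1.43 and -4.99, and without C5a 3 the difference was 0.25 (SE 0.34).

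The direction of a member's difference turned under at least 1 alternative for 7 of the 9, where leaving out an array counts as an alternative, and for 6 when taken relative to the median of all genes under each setting, which leaves Rgs10 out. Gnai3 turned only without C5a 3 and kept its sign under each other alternative in which it was measured. Rgs2 and Gna13 kept a positive difference under each alternative in which they were measured, from 0.11 to 1.32 for Rgs2 and from 0.19 to 0.90 for Gna13, and did not pass under any. Values of Gnai2 ran from -0.96 to 0.53 and turned sign in 8 of 14 alternatives.

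**Figure D4:**
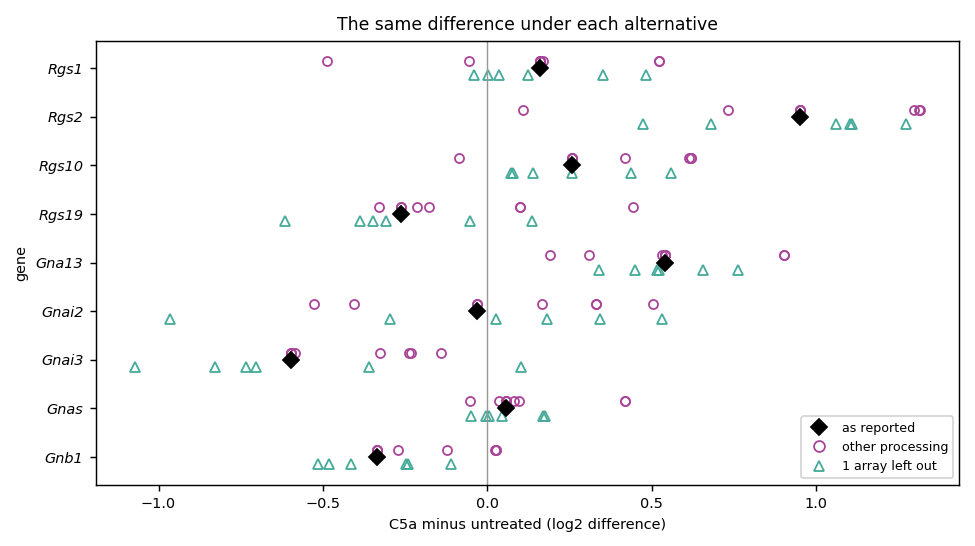
Log2 difference between C5a and untreated cells for the 9 tested members as reported (black diamonds), under other processing choices (purple circles) and with 1 of the 6 arrays left out (green triangles). Rgs2 and Gna13 stay to the right of 0, while the values of Gnai2 spread from -0.96 to 0.53.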

How the data were processed

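Gene expression was measured on 6 arrays (Agilent design 074809, 62976 spots, 1 slide and 1 scan). Per the file headers, the deposited intensity values come from Feature Extraction 10.10.1.1 (protocol GE1_1100_Jul11): a processed signal, background-subtracted within the array and not scaled between arrays, and the median brightness of spot and local background, with flags of 0 or 1 (the other unit). The deposited series table holds log2 values by the authors. Of differences between its columns, 98.9% lay within 0.01 of those found from log2 processed signal once the 75th percentile of all probes had been subtracted per array. Medians of its columns were 0.17, -0.08 and 0.18 (untreated 1 to 3) and 0.01, -0.02 and 0.22 (C5a 1 to 3). Its scale and direction are thus known, and the value subtracted from each probe is not. It served as an alternative.

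Control spots were dropped, and spots of a probe were averaged as log2 signal. Spots flagged as outliers (112 to 138 on an array) were left out of the average unless all spots of the probe were flagged. There were 0 saturated spots. A probe counted as detected where at least 0.5 of its spots, flagged ones included, were well above background. Values were scaled by the 75th percentile over the 2371 probes detected on all arrays. Probes detected on at least 3 arrays were kept, and the brightest kept probe stood for a gene. Accessions, without versions, were named through RefSeq's GRCm38.p6 table (32994 of 56605 probes). The design cites build mm9, so no probe coordinates are given. Groups were compared with limma 3.58.1 (lmFit, eBayes, R 4.3.3) and Benjamini-Hochberg adjustment over all 4488 genes at 0.05, checked on simulated data. The number of arrays limits the precision. The members and lists were chosen with earlier results of these data known.

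Named are all members, C5ar1, the up to 3 tested genes of each pathway list with the highest means, and each member's nearest profile; single cell type markers and genes listed as detected on no array were added after their values were seen. Same-numbered samples deviated together from their group means over the 4488 genes (correlations 0.21, 0.27 and 0.38 for numbers 1 to 3), and a fit with the number as a block was included. Array brightness ran along with the number, so these correlations do not show that the samples were paired. Slide row 1 held the 3 untreated arrays and C5a 1, and row 2 held C5a 2 and 3. Alternatives were the percentile over all probes, quantile normalization, normexp (offset 50) on the spot medians since the files hold no spot means, no filter or a stricter one, the mean of kept probes, the series table, the block, the slide row and leaving out each array. Testing each kept probe on its own was added after seeing the data.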

Additional observations from a re-analysis of the deposited data

How the results depend on the processing

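The call of 0 members and of 0 listed pathway genes held under each of the 15 alternatives, and that of 0 genes in all under each except the test without a filter on dim probes, where limma called 47 of 46522 genes, 9 higher and 38 lower, while the median of all genes moved to -0.41 with 14.3% positive. Under the percentile over all probes, the series table and no filter, every named gene had the same SE, of 0.84, 0.84 and 0.77. As reported, the SE of a member ran from 0.27 for Gnas to 0.77 for Gnai2. These settings thus made a call harder to reach for members with a small SE, while the SE of Gnai2 changed little. With the replicate block limma called 0 genes, and 191 had an unadjusted p under 0.05 against 106 without it. The block changed no other call. With each kept probe tested on its own limma called 0 of 4958. The lowest adjusted p of a named gene under any alternative was 0.927, and 0.921 for a member's probe tested on its own with the replicate block. Of 333 differences recomputed for 23 genes, 71 turned sign. The percentile over all probes moved the median of all genes from 0.04 to 0.40, and turned Rgs19 to 0.10, Gnai2 to 0.33, Gnb1 to 0.027, C5ar1 to 0.087, Gnb2 to 0.30, Pde2a to 0.35, Pde4c to 0.32, Prkar1b to 0.010, Rhoa to 0.17 and Prex1 to 0.22. The deposited series table, with a median of 0.40, gave 0.10, 0.33, 0.027, 0.087, 0.29, 0.35, 0.32, 0.01, 0.17 and 0.22 for these genes. That percentile shifted every gene's difference by the same amount. Relative to the median of all genes, Rgs19 stayed at -0.30 and Gnb1 at -0.37, as in the reported fit. The series table gave nearly the same relative values. These turns of sign thus came with a moved zero point. Quantile normalization turned Gnai2 to 0.17 and Pde2a to 0.010. Normexp moved the median of all genes to -0.12 and turned Rgs1 to -0.056, Rgs10 to -0.086, Gnas to -0.053, Gngt2 to -0.33, Rgs3 to -0.17, Prkar1a to -0.015 and Crtc2 to -0.090. With a term for the slide row, where the C5a effect rests on C5a 1 and the 3 untreated arrays beside it, the values were -0.49 for Rgs1, 0.44 for Rgs19, 0.50 for Gnai2, 0.024 for Gnb1, 0.34 for C5ar1, 0.21 for Gnb2, 0.39 for Rgs20, 0.34 for Pde2a, -0.081 for Crtc2, 0.36 for Prkar1b, 0.32 for Rhoa, 0.47 for Gpsm3 and 0.10 for Prex1. With 1 array left out, differences ran from -0.040 to 0.48 for Rgs1, 0.47 to 1.27 for Rgs2, 0.071 to 0.56 for Rgs10, -0.61 to 0.14 for Rgs19, 0.34 to 0.76 for Gna13, -0.96 to 0.53 for Gnai2, -1.07 to 0.10 for Gnai3, -0.051 to 0.18 for Gnas, -0.52 to -0.11 for Gnb1, -0.58 to 0.28 for C5ar1, -0.21 to 0.059 for Gnb2, 0.062 to 0.35 for Gng5, -0.82 to 0.90 for Gngt2, -0.11 to 0.14 for Rgs3, -0.87 to -0.10 for Rgs20, -0.18 to 0.093 for Pde2a, -0.35 to 0.34 for Pde4c, -0.17 to 0.48 for Prkar1a, -0.56 to 0.73 for Crtc2, -0.73 to 0.35 for Prkar1b, -0.45 to 0.023 for Rhoa, -1.75 to 0.25 for Gpsm3 and -0.31 to 0.058 for Prex1. For the replicate number, limma's F test called 0 genes as reported, 2102 with the percentile over all probes, 2106 in the series table, 1830 with normexp, 34648 without the filter and 17 with the stricter one. Apart from the common shift under the percentile over all probes, the cause of the changes under these alternatives was not tested. Members were often not well above background on the arrays numbered 3, the dimmest of each group. Whether brightness was the cause was not tested.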
